A study of Drosophila melanogaster with 18 samples.

Results

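The transcripts described here are those that placed every double knockdown of insulator proteins on one side of the CTCF and SuHw single knockdowns in cultured Drosophila Kc cells. A transcript was taken when the lowest of the 8 double knockdown arrays lay at least 0.3 on the log2 scale above the highest of the 4 single arrays, or when the highest of the 8 lay at least 0.3 below the lowest of the 4. Of 16637 transcripts on the array, 343 met this rule. In 182 of them the doubles were higher (1.09% of the table) and in 161 they were lower (0.968%). The transcripts were chosen by the measured log2 signals of these 12 arrays, so the separation itself, and everything read from the same 12 arrays, is given as a description with no test. Tests were kept for control, BEAF and CP190 arrays, which took no part in the choice. The spread in those tests was nevertheless estimated from all 18 arrays, these 12 included.

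Insulator proteins bind DNA between genes and regulatory elements and lie at many borders of chromatin domains. BEAF, CTCF and SuHw each recognise their own DNA sequences. CP190 is a partner protein found at sites of all of them and takes part in contacts between sites. Depleting 1 of these proteins, or a pair, can therefore change which genes a regulatory element reaches, and the levels of the transcripts are the readout used here. In fly cells, long double-stranded RNA is cut into small interfering RNAs, which direct the breakdown of the matching messenger RNA.

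The series holds 18 arrays in 9 groups of 2, and its design text describes the arrays of a group as separate biological experiments. Control cells, labelled wild type, received double-stranded RNA against beta-galactosidase, so they too were treated with RNA interference. The single knockdowns were of BEAF, CP190, CTCF or SuHw, and the doubles of BEAF+CTCF, BEAF+CP190, CTCF+CP190 or SuHw+CP190. All groups were given double-stranded RNA on each of 3 days and were collected on day 4. The doubles differ from the singles in the number of double-stranded RNAs given as well as in the proteins targeted, and no source used here gives their amounts. BEAF+CP190 contains neither CTCF nor SuHw knockdown, so it is no addition to either single.

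The labels write the cell line as "KC cells" for control, BEAF and CP190 and as "Kc" for the other 6 groups, which gives a first set of 6 arrays and a second set of 12. The rule uses only the second set. Any level of control, BEAF or CP190 arrays set beside the second set crosses this division, and there an effect of the set cannot be told apart from that of the knockdown. Values are log2 signals of transcripts. Replicate arrays correlated across transcripts at 0.9981 to 0.9994, and the root mean square SD between replicates was 0.0813 to 0.148. None of the 343 transcript identifiers was paired with a gene name in the table used here (16 of all 16637 had 1 name and 28 had several), so they are given by identifier, no gene function is attached to them, and the gene lists and markers of the cell line were not analysed here. Levels of the targeted genes were not analysed here either.

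The separation was moderate in size for most of the transcripts. The median difference between the mean of the 8 doubles and the mean of the 4 singles was 0.81 on the log2 scale in the higher transcripts, a 1.75-fold higher signal, and -0.80 in the lower ones, a 1.74-fold lower signal. It reached 2-fold in 48 of the 182 and 44 of the 161, and the largest differences were 2.97 and 1.74. The gap between the nearest arrays had a median of 0.40 in each direction. In each direction 3 transcripts had a gap of at least 1, with a maximum of 1.30 upward and 1.09 downward. Near the threshold, 2 higher transcripts were just inside at 0.3014 each and 2 just outside at 0.2986 and 0.2982. On the lower side the corresponding gaps were 0.3018 and 0.3021 inside and 0.2988 and 0.2983 outside.

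**Figure D1:**
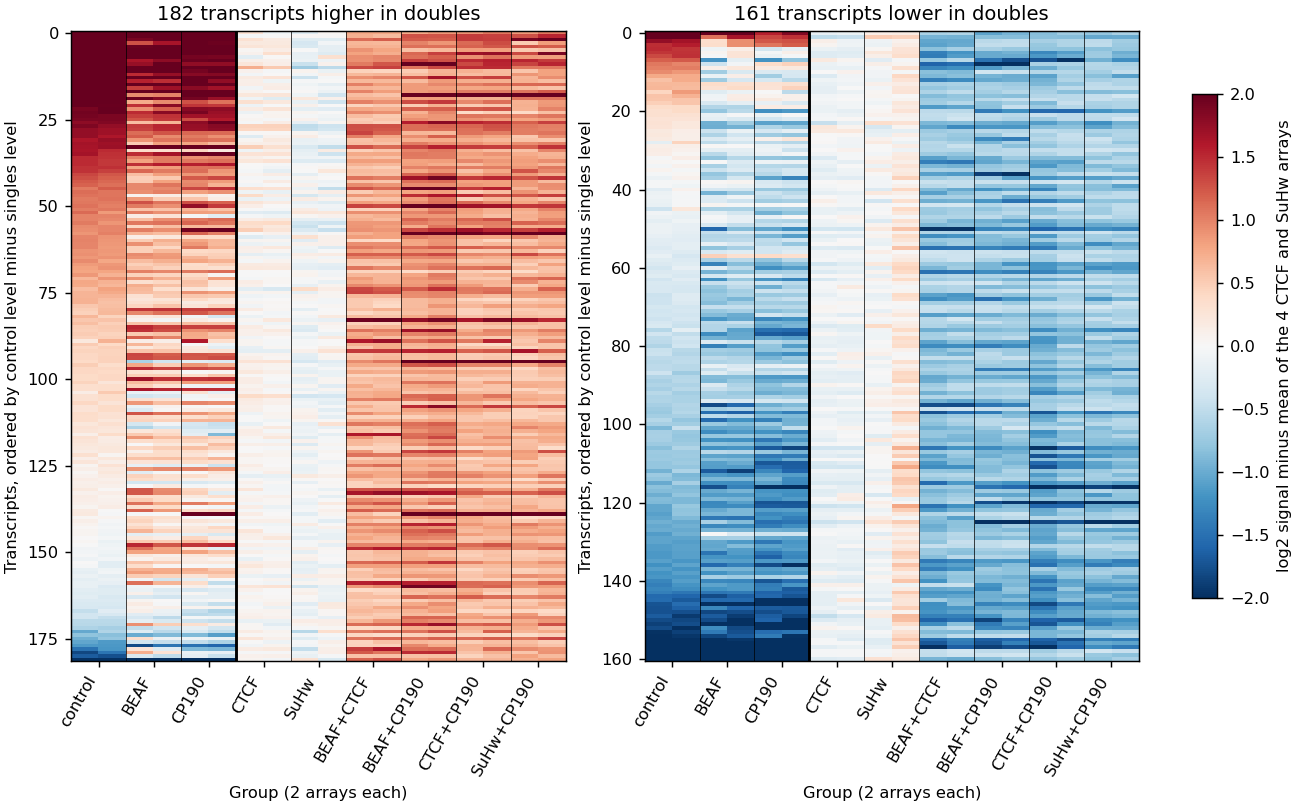
Log2 signal of each of the 343 transcripts (rows) in each of the 18 arrays (columns, 2 per group), minus the mean of the 4 CTCF and SuHw arrays of that transcript, with colour limits of -2 and 2. Rows are ordered by the control level minus the mean of the CTCF and SuHw arrays, and the thick line divides the first set (left) from the second. The doubles are all on the red side in the left panel and on the blue side in the right one, as the rule requires, though to differing depths. Control, BEAF and CP190 arrays run from far above to far below the singles in both panels.

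The largest gap upward was that of FBtr0082194. Its log2 signal was 6.59 and 6.61 in the BEAF+CTCF arrays, 6.41 and 6.56 in BEAF+CP190, 6.28 and 6.50 in CTCF+CP190, and 6.35 and 6.15 in SuHw+CP190. It was 4.70 and 4.85 in the CTCF arrays and 4.52 and 4.47 in SuHw. In the first set it was 5.17 and 5.21 in control, 4.72 and 4.58 in BEAF, and 4.79 and 4.71 in CP190. All 8 doubles thus lay above all 10 other arrays. Those 10 were all below 5.30, the smallest lower quartile of any array. The values include no background measure to tell whether signals in that range lie above background, so no order is read among the 10. The fitted differences from control were -0.54 after BEAF knockdown and -0.44 after CP190 knockdown (SE 0.092 each, limma with Benjamini-Hochberg, adjusted p = 0.00054 and 0.0027), and they lie wholly in that range.

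FBtr0082725, next in the size of its gap, had another arrangement. Its log2 signal was 8.72 and 8.67 in BEAF+CTCF, 9.56 and 9.61 in BEAF+CP190, 9.05 and 9.04 in CTCF+CP190, and 8.76 and 8.79 in SuHw+CP190. It was 7.49 and 7.36 in CTCF and 7.28 and 7.29 in SuHw. In the first set it was 8.45 and 8.37 in control, 8.39 and 8.28 in BEAF, and 9.11 and 8.77 in CP190. Here the 4 single arrays of CTCF and SuHw were the ones that stood apart, below all 14 others, and control lay near the doubles. The signal rose by 0.53 (SE 0.09, limma with Benjamini-Hochberg, adjusted p = 0.00062) after CP190 knockdown against control, while BEAF minus control was -0.07 (adjusted p = 0.55).

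The largest gaps downward were those of FBtr0078896 and FBtr0078930. FBtr0078896 had a log2 signal of 6.10 and 5.88 in CTCF and 5.88 and 6.69 in SuHw. In the doubles it was 4.60 and 4.78 (BEAF+CTCF), 4.50 and 4.57 (BEAF+CP190), 4.54 and 4.37 (CTCF+CP190), and 4.79 and 4.74 (SuHw+CP190). In the first set it was 3.95 and 4.10 in control, 4.07 and 4.2 in BEAF, and 3.92 and 4.08 in CP190. The 4 single arrays lay above all 14 others. All values outside CTCF and SuHw were again below 5.30.

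FBtr0078930 followed the same order at a higher level. It was at 7.50 and 7.58 in CTCF and 7.57 and 8.20 in SuHw. The doubles ran from 5.58 in a CTCF+CP190 array to 6.46 in a SuHw+CP190 array, and the first set from 5.02 to 5.38, both of them CP190 arrays. Neither transcript passed the test in any first-set comparison, with differences of -0.05 to 0.14. In both, the first-set arrays were within or below the lower quartiles of the arrays (5.30 to 5.52), the low end of the signals.

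**Figure D2:**
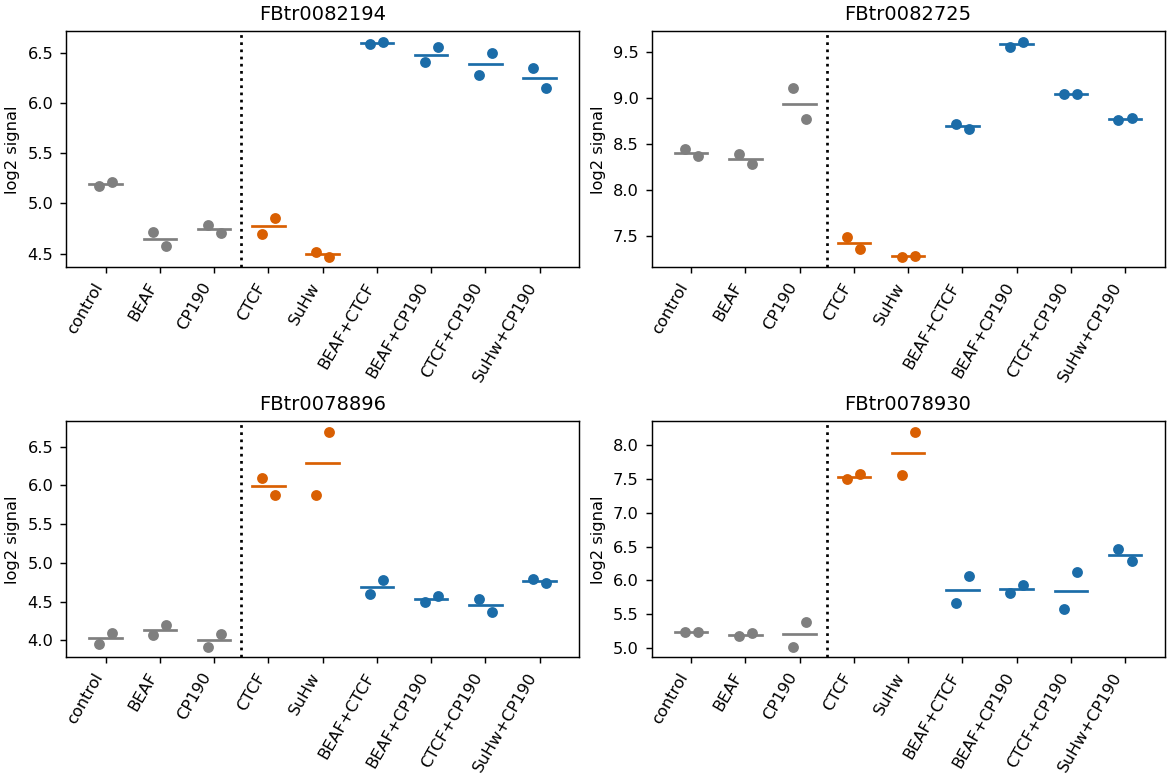
Log2 signal in each array (points) and group mean (lines) for the 2 transcripts with the largest gap each way, with the first set left of the dotted line. FBtr0082194 is high in the 4 doubles only, and the 8 doubles lie above all 10 other arrays, while in FBtr0082725, FBtr0078896 and FBtr0078930 the CTCF and SuHw arrays stand apart from all 14 others.

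These arrangements recurred across the 343 transcripts. In 102 of the 182 higher transcripts (56%) the CTCF and SuHw arrays lay below all 14 other arrays, first set included, where 3.84% of all transcripts did. In 55 (30.2%) the doubles lay above all 10 others, against 2.36% of all transcripts. Of the 161 lower transcripts, 101 (62.7%) had the singles above all 14 other arrays, against 4.30% of all transcripts, and 34 (21.1%) had the doubles below all 10 others, against 1.59%. The rule itself supplies most of each condition, so these shares say only on which side of the gap the first set fell. With a gap of at least 0.3 to the first set as well, the doubles stood apart in 31 higher and 10 lower transcripts. At that gap the singles stood apart in 68 higher and 72 lower ones. No share of all transcripts stands beside these counts.

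Taken group by group, the first set was spread over both sides of the gap. Among the 182 higher transcripts both control arrays were at or above the lowest double in 78, at or below the highest single in 45, and in between or divided in 59. The corresponding numbers were 83, 34 and 65 for BEAF and 81, 47 and 54 for CP190. Control lay above every double in 48 and below every single in 22. Among the 161 lower transcripts control was on the doubles' side in 61 and on the singles' side in 47. BEAF was on the doubles' side in 88 and on the singles' side in 16, and CP190 in 102 and 17. In the lower transcripts, then, fewer were on the singles' side for either knockdown of the first set than for control. These positions compare arrays of different sets. They were counted in the chosen transcripts only, so no share of all transcripts stands beside them.

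**Figure D3:**
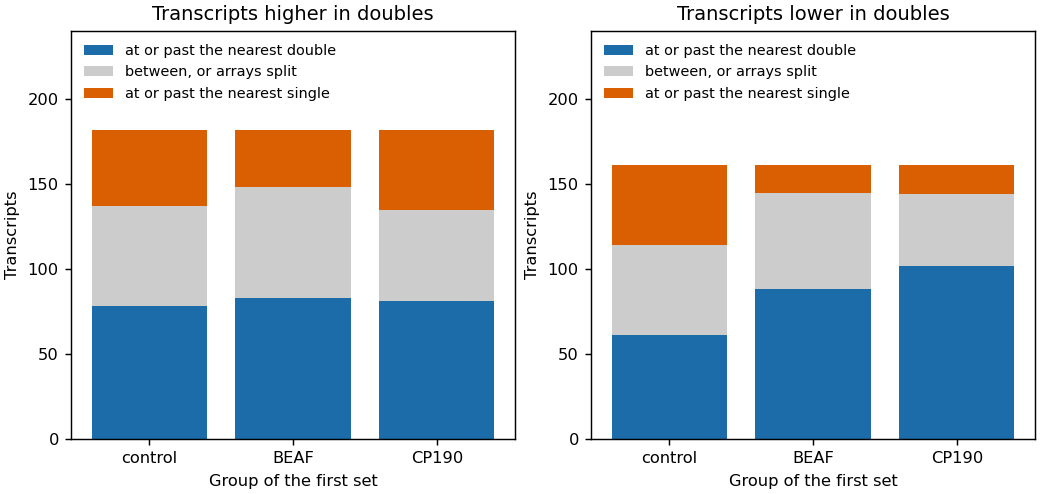
Number of transcripts in which both arrays of a first-set group lie at or past the nearest double knockdown array (blue), at or past the nearest CTCF or SuHw array (orange), or neither (grey). In the lower transcripts the orange part is 47 for control, 16 for BEAF and 17 for CP190.

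Levels by group showed the same in medians. Relative to the mean of the 4 singles, the higher transcripts had a median log2 difference of 0.94 in BEAF+CP190, 0.75 in SuHw+CP190, 0.74 in CTCF+CP190 and 0.70 in BEAF+CTCF. In the first set it was 0.45 in control, 0.57 in BEAF and 0.52 in CP190. In single transcripts the control difference ran from -2.16 to 4.77. The lower transcripts had medians of -0.86 in CTCF+CP190, -0.79 in BEAF+CTCF and in BEAF+CP190, and -0.74 in SuHw+CP190. Control was at -0.50, BEAF at -0.70 and CP190 at -0.87. Over all transcripts these medians were between -0.024 and 0.022 in every group.

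**Figure D4:**
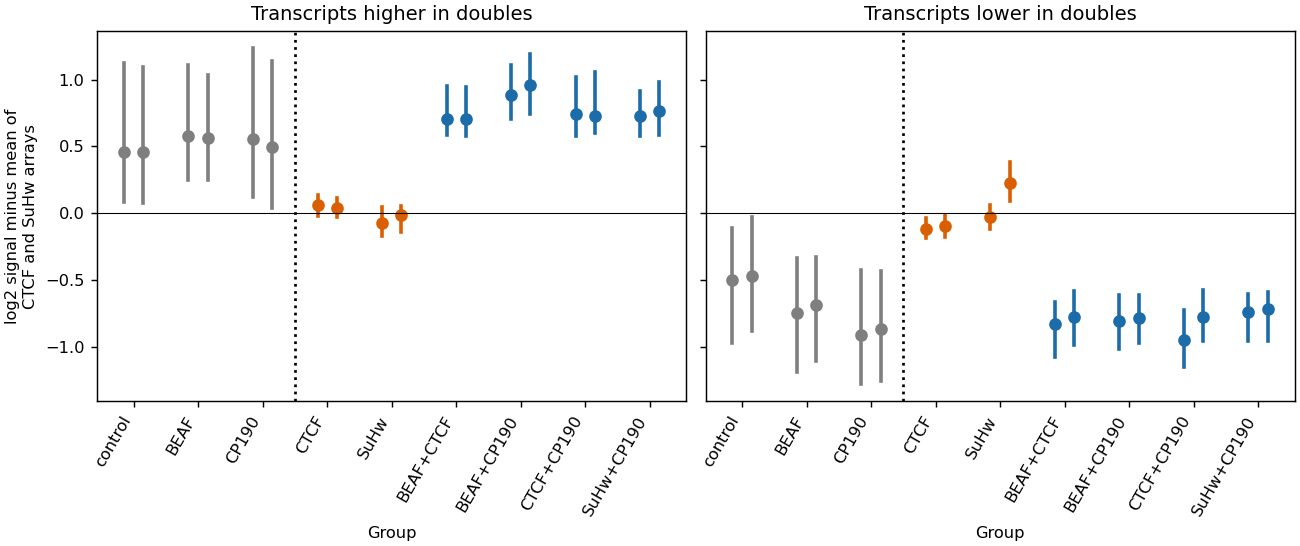
Median (point) and interquartile range (line) of log2 signal minus the mean of the 4 CTCF and SuHw arrays, for each of the 18 arrays, over the transcripts higher (left) or lower (right) in doubles. The dotted line divides the first set from the second, CTCF and SuHw are orange and the doubles blue. Among the lower transcripts replicate 2 of SuHw has its median at 0.22 and replicate 1 at -0.03.

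Each double was also set against the single knockdown it extends. Adding BEAF knockdown to CTCF knockdown gave a median difference of 0.65 in the higher transcripts and -0.70 in the lower ones. Adding CP190 knockdown to CTCF knockdown gave 0.71 and -0.74, and adding it to SuHw knockdown gave 0.77 and -0.86. The smallest differences were 0.35, 0.36 and 0.40 upward and -0.34, -0.37 and -0.36 downward, which the rule brings about. Over all transcripts the medians of the same differences were 0.001, -0.009 and 0.01.

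The doubles differed among themselves in the higher transcripts. BEAF+CP190 had the highest mean of the 4 doubles in 113 of 182 (62.1%), where it was highest in 24.4% of all transcripts. It had the lowest in 8. BEAF+CTCF was the lowest double in 77 (42.3%, against 25.8% of all transcripts). The 6 arrays of doubles with CP190 knockdown lay wholly above or wholly below both BEAF+CTCF arrays in 57 of the 182 (31.3%, against 27.3% of all transcripts), and above them in 43 of these (23.6%, against 12.3%). The 4 arrays with BEAF knockdown lay above the other 4 doubles in 37 (20.3%, against 7.62%) and below them in 7 (3.85%, against 4.53%). The means of the 4 doubles spanned a median of 0.33, against 0.2 over all transcripts. The span was at least 2-fold in 9 of the 182, and in 443 of all 16637. Over all transcripts its maximum was 6.1, and in the higher ones it was 3.82.

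That maximum belonged to FBtr0078763, which was also just inside the threshold. Its log2 signal was 9.44 and 9.50 in BEAF+CP190, 8.64 and 8.76 in CTCF+CP190, and 8.57 and 8.47 in SuHw+CP190. It was only 5.74 and 5.56 in BEAF+CTCF, against 5.26 and 5.12 in CTCF and 4.90 and 5.18 in SuHw. The doubles with CP190 were thus far above all singles, and BEAF+CTCF was close to them. In the first set it was 5.30 and 5.10 in control, 5.10 and 5.10 in BEAF, and 7.43 and 7.14 in CP190. The CTCF, SuHw, BEAF and control arrays were thus at the low end, near or below 5.30, so differences from them are of signal, and those of the RNA may be larger.

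In the lower transcripts CTCF+CP190 was the lowest double in 64 of 161 (39.8%, against 21.1% of all transcripts) and SuHw+CP190 the highest in 58 (36%, against 20.3%). The doubles with CP190 were wholly apart from BEAF+CTCF in 44 (27.3%, the same share as of all transcripts), and above it in 24 of these (14.9%, against 12.3%). The doubles with BEAF lay above the other doubles in 5 (3.11%, against 7.62%) and below them in 10 (6.21%, against 4.53%). The means of the doubles spanned a median of 0.28, against 0.2 over all transcripts. The span reached 2-fold in 8 of the 161, and in 443 of all 16637.

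The singles differed too, and SuHw was usually the farther of the pair from the doubles. Both SuHw arrays lay below both CTCF arrays in 81 of the 182 higher transcripts (44.5%, against 33.6% of all transcripts) and above them in 28 (15.4%, against 24.3%). Among the 161 lower transcripts SuHw lay above CTCF in 88 (54.7%) and below it in 9 (5.59%). The SuHw replicates were themselves apart there: replicate 2 was above replicate 1 in 138 of the 161, with a median difference of 0.23, where this was so in 54.1% of all transcripts. Without SuHw replicate 1 the rule found 223 lower transcripts, all 161 among them, and without replicate 2 it found 166.

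The first set gave differences between arrays that had no part in the choice. Their tests do draw on the arrays of the rule, through the spread estimated from all 18 arrays. In the transcripts lower in doubles, falls outnumbered rises after either knockdown. After BEAF knockdown 75 of the 161 fell against control (46.6%, where 20.0% of all transcripts fell) and 8 rose (4.97%, where 21.7% of all rose; limma with Benjamini-Hochberg adjusted over all transcripts). After CP190 knockdown 94 fell (58.4%, against 19.4% of all transcripts) and 7 rose (4.35%, against 15.5%). With the first set fitted alone, 79 fell and 8 rose after BEAF knockdown (3085 and 3308 of all transcripts). For CP190 knockdown that fit gave 100 falls and 7 rises (2852 and 1960 of all transcripts). The median log2 difference was -0.28 for BEAF and -0.35 for CP190, where over all transcripts it was 0.03 and 0.01. At any size, 126 were below control after BEAF knockdown (44.8% of all transcripts were) and 142 after CP190 knockdown (48.6% of all were). In 14 transcripts the fall reached 2-fold for BEAF, as in 14 for CP190, and in none did a rise, the largest differences upward being 0.90 and 0.63. The 2-fold counts have no share of all transcripts beside them. Both comparisons use the same 2 control arrays. Of the lower transcripts 12.4% were below the lower quartile of mean signal, against 25% of all. With that quartile left out, 3085 (BEAF) and 2911 (CP190) of all transcripts fell, and 3359 and 2638 rose. The shares of the rest, falling or rising, are thus larger than those of all transcripts. Rises and falls both varied with the processing. With quantile normalization 71 fell and 15 rose after BEAF knockdown (3274 and 3760 of all transcripts). For CP190 knockdown it gave 80 falls and 8 rises (2901 and 3110 of all transcripts). Fewer transcripts fell, for either knockdown, whenever 1 array of the comparison was left out.

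In the transcripts higher in doubles, rises and falls were of similar number. After BEAF knockdown 57 of the 182 rose (31.3%) and 66 fell (36.3%). After CP190 knockdown 51 rose (28%) and 62 fell (34.1%). The median differences were -0.03 for each. Either way, 67.6% and 62.1% of the higher transcripts were called, against 41.7% and 35.0% of all transcripts. With quantile normalization the balance turned, to 64 that rose and 62 that fell for BEAF and 60 and 52 for CP190. All transcripts moved the same way. Their rises and falls for CP190 went from 2587 and 3229 to 3110 and 2901. For BEAF they went from 3609 and 3334 to 3760 and 3274. These comparisons too share their control arrays. Without BEAF replicate 1, 4316 of all transcripts were called for BEAF in place of 6943 (rises 2021 in place of 3609, and 2260 without control replicate 1), and the 206 called among the 343 became 153. For CP190 the rises over all transcripts went from 2587 to 1561 without control replicate 1 and to 1628 without control replicate 2, and the 214 called among the 343 became 182 and 170.

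**Figure D5:**
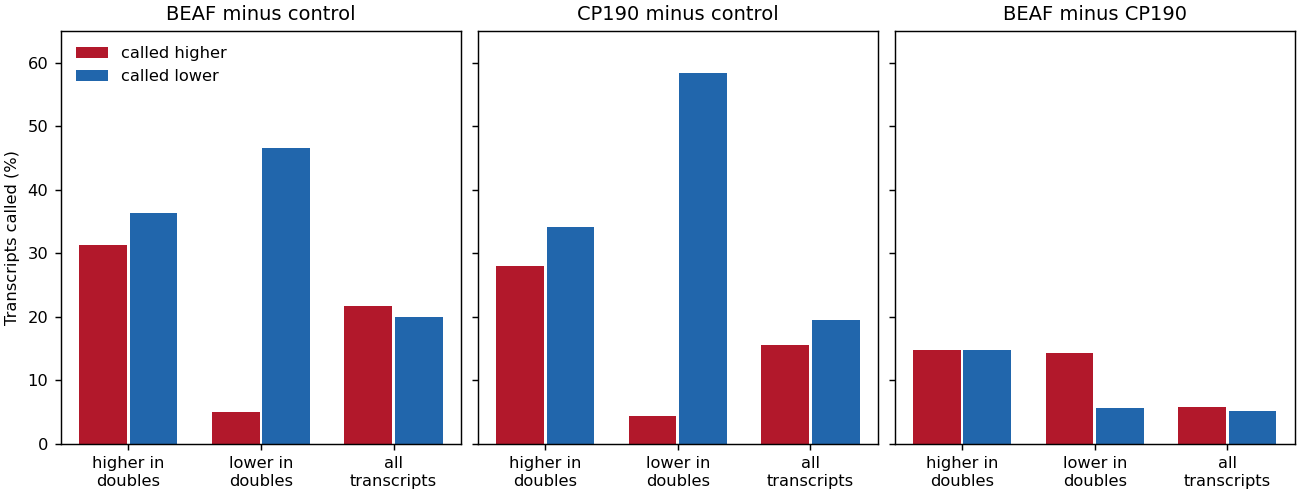
Percentage of transcripts called higher (red) or lower (blue) in 3 comparisons within the first set (limma, adjusted p under 0.05), for the 182 transcripts higher in doubles, the 161 lower in doubles and all 16637. Among the lower transcripts 46.6% fell after BEAF knockdown and 58.4% after CP190 knockdown, against 20.0% and 19.4% of all transcripts.

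The greatest falls among the lower transcripts were in FBtr0085683 and FBtr0113931. FBtr0085683 had a log2 signal of 7.78 and 7.82 in control, 5.42 and 6.40 in BEAF, and 5.40 and 5.80 in CP190. It fell by 1.89 (SE 0.24) and by 2.20 (SE 0.24) on the log2 scale (limma with Benjamini-Hochberg, adjusted p = 6.4e-05 and 2.8e-05). The knockdown arrays did not overlap control. In the second set it was 6.36 to 6.78 in the singles and 4.61 to 6.03 in the doubles, so control lay above all of these.

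FBtr0113931 was at 6.62 and 6.57 in control, 5.05 and 5.27 in BEAF, and 4.77 and 4.96 in CP190. It fell by 1.44 (SE 0.093) and by 1.72 (SE 0.093) (limma with Benjamini-Hochberg, adjusted p = 5e-07 and 1.9e-07). Its doubles, at 4.31 to 4.48, were lower than the CTCF arrays (5.0 and 4.96) and the SuHw arrays (5.18 and 5.40). All of its values outside control were near or below the lower quartile of the arrays (5.30 to 5.52).

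The few rises were led by FBtr0086762 and FBtr0110803. FBtr0086762 was at 6.72 and 6.88 in control, 7.83 and 7.57 in BEAF, and 7.42 and 7.44 in CP190, a rise of 0.90 (SE 0.16) and of 0.63 (SE 0.16) (limma with Benjamini-Hochberg, adjusted p = 0.0007 and 0.0088). Without control replicate 1 the CP190 difference was 0.55 and did not pass (adjusted p = 0.069). FBtr0110803 rose by 0.65 (SE 0.089) and by 0.61 (SE 0.089), from 8.89 and 8.69 in control to 9.52 and 9.36 in BEAF and 9.44 and 9.37 in CP190. In both transcripts every knockdown array of the first set was above both control arrays.

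Among the higher transcripts FBtr0075697 and FBtr0074336 rose most after BEAF knockdown. FBtr0075697 was at 5.57 and 5.92 in control, 8.11 and 7.68 in BEAF, and 7.28 and 7.22 in CP190. This was a rise of 2.15 (SE 0.15), or 4.43-fold, after BEAF knockdown and of 1.5 (SE 0.15) after CP190 knockdown (limma with Benjamini-Hochberg, adjusted p = 7.7e-07 and 1.4e-05). In the second set it was at 7.30 to 7.53 in the singles and 7.94 to 8.88 in the doubles, so control was below every other array.

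FBtr0074336 was at 11.18 and 11.10 in control, 12.70 and 12.43 in BEAF, and 12.62 and 12.69 in CP190, a rise of 1.42 and of 1.52 (SE 0.079 each, limma with Benjamini-Hochberg, adjusted p = 2.2e-07 and 1.6e-07). In the second set the CTCF arrays were at 11.32 and 11.27, the SuHw arrays at 11.15 and 11.03, and the doubles at 12.09 to 12.43. Control was therefore close to the CTCF and SuHw arrays, and the BEAF and CP190 arrays were level with or above the highest of the doubles.

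Others of the higher transcripts fell from a control level above every array of the second set. FBtr0075801 was at 10.61 and 10.50 in control, 8.78 and 9.08 in BEAF, and 9.36 and 9.45 in CP190, with falls of 1.63 and 1.15 (SE 0.14 each) on the log2 scale (limma with Benjamini-Hochberg, adjusted p = 2.4e-06 and 4.5e-05). All 12 arrays of the second set lay between 5.52 and 6.84. FBtr0072796 fell by 2.02 after BEAF knockdown and by 1.47 after CP190 knockdown (SE 0.13 each), from 8.84 and 8.74 in control to 6.58 and 6.96 in BEAF and 7.37 and 7.26 in CP190. Its second-set arrays ran from 4.97 to 6.61. After CP190 knockdown FBtr0083372 fell by 1.25 (SE 0.14), from 7.15 and 7.02 in control to 5.95 and 5.72.

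BEAF and CP190 arrays were also compared directly, which uses no control array. Of the higher transcripts 27 were above and 27 below in BEAF (14.8% each, against 5.73% and 5.09% of all transcripts). Of the lower transcripts 23 were above (14.3%) and 9 below (5.59%). Together 86 of the 343 were called, against 10.8% of all transcripts. With the first set fitted alone, 72 of the 343 and 1259 of all transcripts were called. With the lower quartile of mean signal left out, 94 of these transcripts and 1902 of all were called, so the share of the rest is larger than 10.8%. The count for the 343 depended on single arrays. The 86 became 41 without BEAF replicate 1 and 56 without either CP190 replicate. Over all transcripts the number called went from 1800 to 811 without BEAF replicate 1 and to 1012 without CP190 replicate 1. The surplus of lower transcripts above in BEAF did not hold without BEAF replicate 2, where 14 were above and 14 below.

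The largest differences of this kind were in FBtr0080239 and FBtr0078763. FBtr0080239 was at 5.85 and 5.91 in BEAF, 8.07 and 8.21 in CP190, and 7.01 and 7.10 in control. The difference of BEAF from CP190 was -2.26 (SE 0.095, limma with Benjamini-Hochberg, adjusted p = 3.9e-08), a 4.78-fold lower signal. The second set was ordered in the same way by CP190: 8.05 to 8.57 in the 6 doubles with CP190 knockdown, 5.54 and 5.48 in BEAF+CTCF, 5.14 and 5.16 in CTCF, and 4.83 and 4.53 in SuHw. FBtr0078763, whose arrays are given above, differed by -2.19 (SE 0.11, adjusted p = 1.7e-07), and it rose by 2.09 after CP190 knockdown against control (SE 0.11, adjusted p = 1.9e-07). In FBtr0078763 the lower side of both differences is at the low end of the signals, as are the CTCF and SuHw arrays of FBtr0080239. The BEAF arrays of FBtr0080239 are above the lower quartile of every array (5.30 to 5.52).

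The opposite difference was found in FBtr0100484 and FBtr0075843. FBtr0100484 was at 7.77 and 7.48 in BEAF, 7.0 and 6.31 in CP190, and 6.61 and 6.67 in control, so BEAF lay above CP190 by 0.97 (SE 0.16, limma with Benjamini-Hochberg, adjusted p = 0.0017) and above control by 0.99 (SE 0.16). Against control CP190 differed by 0.02 (adjusted p = 0.95), but its 2 arrays were far apart, and without CP190 replicate 2 the difference was 0.36 (adjusted p = 0.021), while without CP190 replicate 1 it was -0.33 (adjusted p = 0.031), so its sign depends on the array left out. In the second set the arrays with BEAF knockdown were at 8.16 to 8.28, the other doubles at 7.71 to 7.81, and the singles at 6.48 to 6.59. FBtr0075843 had 6.24 and 6.11 in BEAF and 5.52 and 4.82 in CP190, the last of these at the low end of the signals, a difference of 1.00 (SE 0.16, adjusted p = 0.0016).

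Among the lower transcripts FBtr0074012 was the clearest of those above in BEAF. It had 7.89 and 7.67 in BEAF, 7.04 and 7.09 in CP190, and 7.58 and 7.52 in control, a difference of BEAF from CP190 of 0.72 (SE 0.096, limma with Benjamini-Hochberg, adjusted p = 0.00043). Its second-set arrays were at 6.17 to 6.84 in the 6 doubles with CP190 and at 7.66 and 7.71 in BEAF+CTCF, with 8.12 and 8.15 in CTCF and 8.84 and 9.05 in SuHw. FBtr0113854 had a difference of 0.79 (SE 0.17, adjusted p = 0.011), which did not pass without BEAF replicate 1 (0.63, adjusted p = 0.12) or without CP190 replicate 1 (0.73, adjusted p = 0.076). FBtr0084860 and FBtr0078859 were lower in BEAF than in CP190, by -0.75 (SE 0.1, adjusted p = 0.0004) and -0.74 (SE 0.078, adjusted p = 6.5e-05). In each of these the BEAF arrays, at 6.90 and 6.89 and at 6.66 and 6.90, lay below the CP190 arrays, at 7.65 and 7.63 and at 7.47 and 7.57.

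The 343 transcripts were found mostly in the lower middle of the signal range. The median of the mean signal over 18 arrays was 8.16 in the higher and 7.86 in the lower transcripts, against 9.29 over all transcripts. Only 59 of the 182 and 45 of the 161 were above that middle value. Below the lower quartile of all transcripts were 6 of the higher (3.3%) and 20 of the lower ones (12.4%). A separation of 0.3 or more is therefore read mostly at moderate signals, and the array table holds no background measure to set it against.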

How the data were processed

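RNA of Kc cells was measured on NimbleGen expression arrays with 1 colour (Cy3), 2 arrays in each of 9 groups, per the labels' protocols. The authors deposited 1 table of log2 signals, with a row for each of 16637 FlyBase transcript identifiers. Per the submitters' processing notes, RMA and Partek were used. No version or setting is stated. RMA usually subtracts background, gives arrays like distributions and combines probes, which can compress differences at low signals. Array medians were 9.27 to 9.33. No 2 columns were identical.

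The deposited values were used as they are. The rule for the transcripts was applied to the 8 double and 4 single arrays. One model with a mean for each of the 9 groups was fitted to the 18 arrays (limma 3.58.1, functions lmFit and eBayes, under R 4.3.3, with 9 residual and 3.68 prior degrees of freedom), giving two-sided p-values adjusted by Benjamini-Hochberg over all transcripts and a threshold of 0.05. The fit was tested on simulated data. Differences are of mean log2 signals, and folds of signal may understate those of RNA near the low end. The transcripts, gene lists and tests were chosen with earlier results of these data known. With no gene names, the fixed rule named, among higher and lower transcripts apart, the 2 with the largest gap and, in each first-set comparison, the 2 largest called differences each way. Alternatives were a fit of the first set alone, the replicate number as a block, quantile normalization, a filter on low signals, an intensity trend, other gaps and leaving out each array. Names were sought in the synonyms of a RefSeq table of 17872 genes (Release 6 assembly). No sequence is printed, since none was paired with these identifiers.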

Additional observations from a re-analysis of the deposited data

Results flagged for a closer look

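FBtr0080239 was singled out because BEAF and CP190 knockdown moved it in opposite directions from the same 2 control arrays and the direct test of the difference passed. It fell by 1.17 (SE 0.095, limma with Benjamini-Hochberg, adjusted p = 2.1e-06) after BEAF knockdown and rose by 1.09 (SE 0.095, adjusted p = 5e-06) after CP190 knockdown, and the difference of BEAF from CP190 was -2.26. Both arrays of each knockdown showed the direction.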

How the results depend on the processing

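The size of the gap set the number of transcripts found. A gap of 0.2 gave 327 higher and 302 lower transcripts, and a gap of 0.5 gave 49 and 37. Quantile normalization gave 161 higher and 186 lower, with 154 and 155 shared with the lists described. Leaving out 1 of the 12 arrays gave 182 to 224 higher and 164 to 223 lower, since fewer arrays have to be passed. Of the 343, 153 to 187 were called in BEAF against control, 170 to 182 in CP190 against control and 41 to 88 in BEAF against CP190 when 1 array was left out. In the other alternatives (first set alone, replicate block, quantile normalization, low-signal filter, intensity trend) the counts stayed within 1.5 times those given (206, 214 and 86). With the replicate block they were 207, 220 and 90. The labels do not say what a replicate number shares, and deviations of same-numbered arrays correlated between -0.028 and 0.05 among the first-set groups and between -0.199 and 0.453 over all 36 pairs of groups, so the numbers were not taken as pairs. Of 43 called differences of the 21 named transcripts, none changed sign in the alternatives run, and 6 did not pass in at least 1 of them. Beside those given above, these were FBtr0075697, FBtr0072796 and FBtr0075801 in BEAF against CP190 and FBtr0078859 in CP190 against control. The cause was not tested. The number of arrays limits the precision, and the signals have no background measure.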

Other observations

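The lower transcripts were unevenly spread over the identifiers. Those numbered FBtr0113000 to FBtr0114999 made up 43 of the 161 (26.7%), 4 of the 182 higher transcripts (2.2%) and 892 of all 16637 (5.36%). This range was chosen after the values were seen. Of the 43, 21 fell after BEAF knockdown and 27 after CP190 knockdown and none rose at the threshold in either, while of all 892 in the range 20% and 21.7% fell. Of the 118 lower transcripts outside the range 54 and 67 fell (45.8% and 56.8%). What sets these identifiers apart was not analysed here.

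Many of the 343 were next to each other in the table. A transcript separated in the same direction stood in the row before or after for 36 of the 182 higher and 38 of the 161 lower transcripts. Such transcripts may share a gene or probes, which the table does not show, so the counts given are of transcripts and not of independent genes.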
